A study of Mus musculus with 2 samples.

Results

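The histone genes of the embryonic mouse brain were followed in the subventricular zone (SVZ) and the cortex. The members were taken by symbol from the deposited gene counts. Symbols that begin with Hist1h to Hist4h gave 68 replication-dependent histone genes, and symbols that begin with H2af, H3f3 or H1f gave 16 variant histone genes, together 84 of the 24411 genes listed. The tissue was fresh-frozen mouse brain at embryonic day 16.5 (E16.5), and the labels give neither strain nor sex. Each area was cut from stained sections by laser capture microdissection (LCM), in which a laser frees a chosen area of tissue under the microscope, and gave 1 bulk RNA-seq library. The study used these libraries as a reference for a light-directed spatial barcoding method. No agent, transgene or mutation is named for either library.

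Replication-dependent histone genes lie in clusters and are transcribed as cells copy their DNA, when new chromatin needs core histones (H2A, H2B, H3 and H4) and linker histones (H1). Their mRNAs usually end in a short stem-loop that is bound by the protein SLBP, in place of a poly(A) tail. Variant histone genes lie mostly apart from these clusters, make mostly polyadenylated mRNAs, are used throughout the cell cycle and in cells that no longer divide, and encode histones such as H3.3, H2A.Z, H2A.X, macroH2A and H1.0.

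Gene-assigned reads numbered 51435667 for the SVZ and 22050693 for the cortex. Levels are unstranded read counts or CPM, that is reads scaled to a total of 1000000 per library, so that a single read equalled 0.0194 CPM (SVZ) or 0.0454 CPM (cortex). Where a gene or group is given a pair of values, the SVZ value stands first and the cortex value next. The ratio reported is SVZ CPM over cortex CPM, on the log2 scale or as a fold. With 1 library per area there is no replicate check and no test, and area, section, RNA input and library cannot be told apart. Intervals are exact 95% intervals (Clopper-Pearson) of the read counts and cover counting error only. They treat each read as independent. PCR copies without molecular identifiers are not independent molecules, so that the intervals can be too narrow even for counting error. In bulk samples, a larger share of dividing cells and more histone mRNA per cell cannot be told apart. The labelled areas carried their own markers: 10 of 10 progenitor markers were higher in the SVZ by 4-fold or more, and 10 of 10 neuronal markers were higher in the cortex library. Markers of other cells also differed. The 6 microglial markers were all higher in the SVZ library (50.3 CPM summed, against 5.53 CPM), as were the 4 choroid plexus markers (247 CPM against 2.27 CPM, of which Ttr alone gave 240 CPM and 0.726 CPM). Of these 4, Aqp1 had 13 and 4 reads and an interval on both sides of equal CPM (log2 0.48, -1.22 to 2.55). Summed erythroid markers were at 22.9 CPM and 11.9 CPM, with the adult globin genes Hbb-bs, Hbb-bt, Hba-a1 and Hba-a2 listed at 0 in both libraries. Reads that map to several places were counted to no gene, so that a count of 0 does not show that these genes were silent. Summed blood vessel markers were at 68.3 CPM and 58.4 CPM, and meningeal markers at 4.59 CPM and 9.39 CPM. The part of these cells in the histone values was not tested.

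The stem-loop at the end of the mRNA is shown first, because the libraries were made with a kit that primes cDNA from poly(A) tails and the members differ in whether their annotated transcripts also carry a poly(A) signal. The 16 bases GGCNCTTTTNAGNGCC, read on the transcript strand, were searched in the longest GENCODE M21 transcript of each gene (GRCm38, which has the coordinates of mm10). They stood in 44 of 19917 protein-coding genes (0.221%), of which 42 were members: 41 replication-dependent genes and the variant H2afx. Capitals mark the 16 matched bases, with 4 bases of the transcript on each side.
Hist3h2ba: caaaGGCTCTTTTCAGAGCCacct
Hist3h2a: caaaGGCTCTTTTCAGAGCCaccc
Hist1h1c: aaaaGGCTCTTTTCAGAGCCacca
Hist1h2ae: caaaGGCTCTTTTCAGAGCCattc
Hist1h4i: taaaGGCCCTTTTTAGGGCCacca
Hist1h2bm: caaaGGCTCTTTTCAGAGCCacta
Hist1h2ag: caaaGGCTCTTTTCAGAGCCacct
H2afx: caaaGGCCCTTTTAAGGGCCacca
The first 5 and H2afx also carry AATAAA or ATTAAA in the last 50 bases of the transcript, and Hist1h2bm and Hist1h2ag do not. The matched bases lie at chr11:58949349-58949364 (+) for Hist3h2ba, chr11:58955172-58955187 (+) for Hist3h2a, chr13:23739512-23739527 (+) for Hist1h1c, chr13:23570668-23570683 (-) for Hist1h2ae, chr13:22040966-22040981 (-) for Hist1h4i, chr13:21722506-21722521 (+) for Hist1h2bm, chr13:22042483-22042498 (-) for Hist1h2ag and chr9:44335240-44335255 (+) for H2afx. The annotated transcript runs on for 1643 bases after the stem-loop in Hist3h2a, 840 in Hist1h1c, 822 in H2afx, 330 in Hist1h4i, 169 in Hist3h2ba and 151 in Hist1h2ae. It runs on for 46 bases in Hist1h2bm and 23 bases in Hist1h2ag. The same letters were not found in the longest transcripts of Hist2h2be, Hist1h2bc and Hist1h1b.

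The 68 replication-dependent genes summed to 24282 and 5567 reads, or 472 CPM and 252 CPM. The SVZ sum was 1.87-fold higher, a log2 ratio of 0.90 (0.86 to 0.95). These sums were 0.0472% and 0.0252% of gene-assigned reads. A few genes with many reads set most of this sum. The 4 most read genes, Hist3h2ba, Hist3h2a, Hist2h2be and Hist1h2bc, took 90.6% of the group's SVZ reads and 97.0% of its cortex reads, and their sum had a log2 ratio of 0.80 (0.76 to 0.85). The other 64 genes held 2288 and 165 reads, 5.94-fold higher in the SVZ library (log2 2.57, 2.34 to 2.81).

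Of the 68 genes, 11 had no read in either library, which allows levels up to 0.0583 CPM and 0.136 CPM (3 reads each), 33 had reads in the SVZ library alone, 2 in the cortex library alone and 22 in both. Because 1 read is worth more CPM in the cortex library, a count of 0 there limits a level less tightly. A ratio could be formed for 49 genes with more than 3 reads in a library, with a count of 0 set at 3 reads and the ratio then read as a bound. The whole interval lay on the SVZ side for 33 of these 49, where 45.4% of all 15847 genes with more than 3 reads in a library did so. It lay on the cortex side for 1, where 36.1% of all genes did. That gene, named after its values were seen, was the linker histone gene Hist1h1d, with 0 SVZ reads and 5 cortex reads.

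Of the 68, 11 genes reached a mean of 1 CPM over both libraries, a minimum that a gene read mostly in 1 area passes through that area. All 11 were higher in the SVZ library, against 54.9% of the 12738 genes that reached it, and 10 had the whole interval on that side, against 48.2%. At least a 4-fold difference to the SVZ side was found for 6 of the 11 (10.2% of all genes), and to the cortex side for 0 (7.01%). The median log2 ratio of the 11 was 2.27, with a range of 0.24 to 6.06, beside a median of 0.11 over all genes. Both values depend on the low genes: the number at 4-fold was 1 with a pseudocount of 1 CPM, 1 with a minimum of 10 CPM and 18 with no minimum, and the median was 1.78, 1.03 and 1.59 in turn.

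Each of the 5 classes was higher in the SVZ library when its reads were summed, by amounts that differed between classes. The 13 H4 genes held 543 and 30 reads, a log2 ratio of 2.96 (2.43 to 3.54) or 7.76-fold. The 12 H3 genes held 117 and 8 reads, 2.65 (1.62 to 3.89) or 6.27-fold. These histones form the core tetramer of the nucleosome. Their replication-dependent genes had few reads in both libraries and were nearly unread in the cortex library. H4 and H3 made up 2.24% and 0.482% of the group's SVZ reads, and 0.539% and 0.144% of its cortex reads. The 6 linker H1 genes held 351 and 56 reads, 1.43 (1.02 to 1.86) or 2.69-fold. The 19 H2B genes held 14676 and 3051 reads, 1.04 (0.99 to 1.10) or 2.06-fold, and the 18 H2A genes 8595 and 2422 reads, 0.61 (0.54 to 0.67) or 1.52-fold. H2A and H2B, which pair as dimers on the tetramer, together held nearly all reads of the group, and most of them came from the Hist3 cluster.

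**Figure D1:**
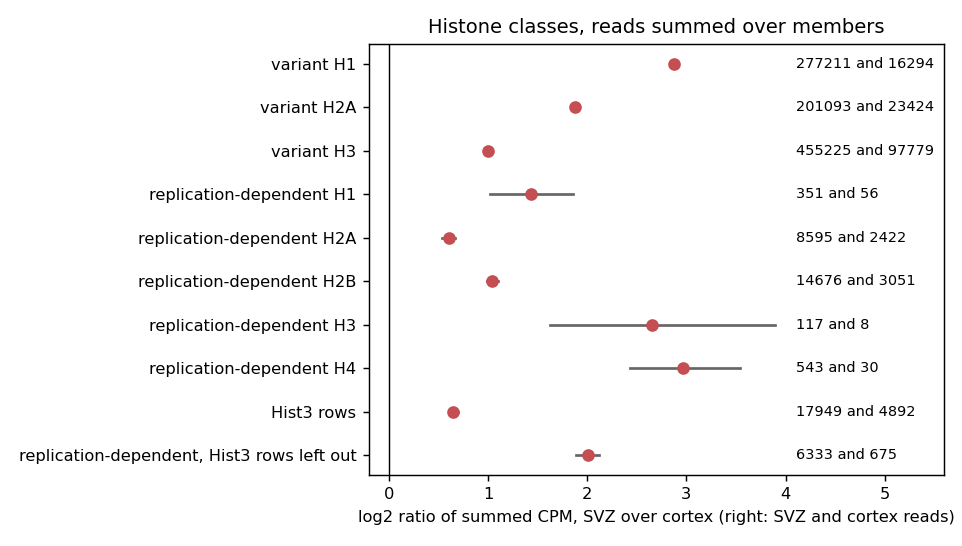
Log2 ratio of summed CPM (SVZ over cortex, horizontal axis) for the variant and replication-dependent classes and for the Hist3 genes; points are the ratios, lines the exact 95% counting intervals, and the reads of each library stand at the right. The Hist3 genes sit at 0.65, and the replication-dependent genes without them at 2.01.

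By cluster, the 3 Hist3 genes on chromosome 11 (chr11:58948920-58956830) stood at 17949 and 4892 reads, 73.9% of the group's SVZ reads and 87.9% of its cortex reads, with a log2 ratio of 0.65 (0.61 to 0.70). The 54 Hist1 genes, which span 2.22 Mb of chromosome 13 (chr13:21715763-23934851), held 4002 and 473 reads, 1.86 (1.72 to 2.00) or 3.63-fold higher in the SVZ library. The 10 Hist2 genes on chromosome 3 (chr3:96219865-96270132) held 2307 and 202 reads, 2.29 (2.08 to 2.51) or 4.90-fold, and most of these reads were those of Hist2h2be. Hist4h4, the only Hist4 gene, had 24 and 0 reads, at least 3.43-fold higher. The 65 genes outside the Hist3 cluster were together 4.02-fold higher in the SVZ library (6333 and 675 reads, log2 2.01, 1.89 to 2.12).

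Hist3h2ba (chr11:58948920-58949533), an H2B gene, had 10074 and 2497 reads, at 196 CPM and 113 CPM. It was 1.73-fold higher in the SVZ library, a log2 ratio of 0.79 (0.73 to 0.85). The H2A gene Hist3h2a (chr11:58954685-58956830) had 7840 and 2377 reads, 152 CPM and 108 CPM, a log2 ratio of 0.50 (0.43 to 0.57). They were also the most read of the group in the cortex, where no other replication-dependent gene passed 331 reads. They start 5765 bases apart on the same strand. Per kb of exon, the level of Hist3h2ba was 4.49 times that of Hist3h2a in the SVZ and 3.67 times in the cortex. The third gene of the cluster, the processed pseudogene Hist3h2bb-ps, had 35 and 18 reads, and its log2 ratio of -0.26 (-1.12 to 0.64) had an interval on both sides of equal CPM. The sum of the stranded columns held 60.0% more SVZ reads and 27.8% more cortex reads for it. It gave a log2 ratio of 0.06, so that the direction for this pseudogene depends on the column read.

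Hist2h2be (chr3:96221119-96223738), an H2B gene, had 2211 and 197 reads, 43.0 CPM and 8.93 CPM, 4.81-fold higher in the SVZ (log2 2.27, 2.06 to 2.48). Hist1h2bc (chr13:23684199-23692908), also H2B, had 1869 and 331 reads, 36.3 CPM and 15.0 CPM, with a log2 ratio of 1.28 (1.11 to 1.45). These genes share 86.9% of their coding bases, and Hist2h2be shares 84.8% with Hist3h2ba, yet the 3 H2B genes differed from 1.73-fold to 4.81-fold between the areas. Hist1h4i, the most read H4 gene, had 301 and 17 reads (5.85 CPM and 0.771 CPM), 7.59-fold higher in the SVZ library (log2 2.92, 2.22 to 3.72). The H2A gene Hist1h2ae had 292 and 19 reads (5.68 CPM and 0.862 CPM), 6.59-fold higher (log2 2.72, 2.05 to 3.47). The coding bases of Hist1h2ae and Hist3h2a are 88.8% identical.

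A further group of Hist1 genes was read almost solely in the SVZ library. The H2B gene Hist1h2bm had 156 reads there against 1 cortex read, with a log2 ratio of 6.06 (3.56 to 11.38). The H2A gene Hist1h2ag had 127 and 0 reads and was at least 18.1-fold higher, and the linker histone gene Hist1h1b (H1.5) had 125 and 0 reads and was at least 17.9-fold higher. The linker histone gene Hist1h1c (H1.2) stood apart from Hist1h1b. It had 138 and 50 reads, 2.68 CPM and 2.27 CPM. Its log2 ratio was 0.24 (-0.23 to 0.74), which counting error does not separate from equal CPM. The most read H3 gene, Hist2h3b, had 42 and 4 reads, 4.50-fold higher in the SVZ library (log2 2.17, 0.71 to 4.11), so that no replication-dependent H3 gene reached 1 CPM. The 57 genes under a mean of 1 CPM held 1055 and 60 reads in all, 7.54-fold higher in the SVZ library (log2 2.91, 2.54 to 3.31).

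**Figure D2:**
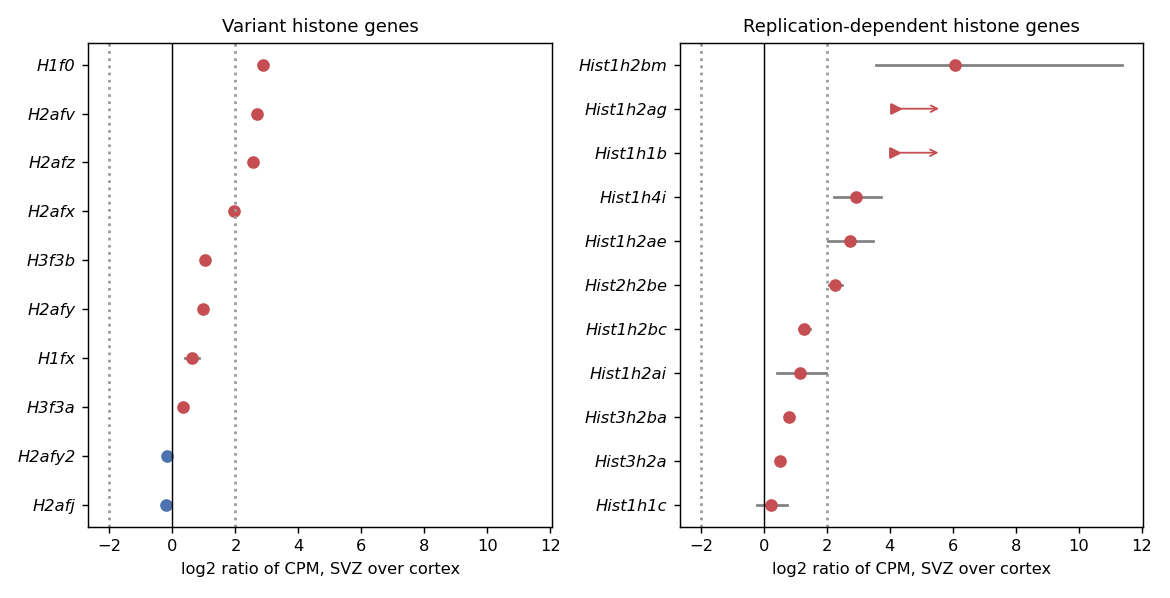
Log2 ratio of CPM (SVZ over cortex, horizontal axis) of the variant genes (left) and replication-dependent genes (right) with a mean of at least 1 CPM; lines are exact 95% counting intervals, arrows mark lower bounds where the cortex count was 0, and dotted lines mark 4-fold. All 11 replication-dependent genes lie right of 0, from 0.24 to 6.06, and 8 of the 10 variant genes do.

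The replication-dependent genes were next divided by the annotated end of the longest transcript. A poly(A) signal (AATAAA or ATTAAA) in the last 50 bases is common in the genome, in 74.0% of 19917 coding genes, and was present in 17 of the 68 genes. These 17 held 86.8% of the group's SVZ reads and 92.8% of its cortex reads. Their sum was 1.75-fold higher in the SVZ library (21069 and 5165 reads, log2 0.81, 0.76 to 0.85), and that of the 51 genes without the signal was 3.43-fold higher (3213 and 402 reads, log2 1.78, 1.63 to 1.93). The 11 genes with both a stem-loop and a poly(A) signal, Hist3h2ba and Hist3h2a among them, held 18774 and 4968 reads. The 30 genes with a stem-loop alone held 836 and 26 reads, 13.8-fold higher in the SVZ library (log2 3.78, 3.22 to 4.41). No gene of these 30 passed 156 SVZ reads, which was Hist1h2bm, or 7 cortex reads. In 20 genes the stem-loop lay within 100 bases of the annotated end, as in the classical mRNA without a tail, and these held 573 and 7 reads, 35.1-fold higher in the SVZ library (log2 5.13, 4.08 to 6.45). Hist1h4h, which is among these 20, also carries a poly(A) signal and gave 33 and 4 of these reads. The 6 genes with a poly(A) signal alone held 2295 and 197 reads (4.99-fold), of which Hist2h2be gave 2211 and 197, and the 21 with neither held 2377 and 376 reads (2.71-fold), of which Hist1h2bc gave 1869 and 331. Some of these 21 transcripts are annotated at coding length only. Hist1h2ai has 393 bases, as the coding bases of Hist1h2ae, and Hist1h2bl has 381, as those of Hist2h2be. In such transcripts neither feature could be found, so that this class is not a type of mRNA end.

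The contrast between these ends rests on few genes. Without the Hist3 genes, the 15 remaining genes with a poly(A) signal had an SVZ sum 4.65-fold above the cortex sum (3155 and 291 reads, log2 2.22, 2.04 to 2.39). Without Hist1h2bc, the 50 remaining genes without the signal were 8.12-fold higher (1344 and 71 reads, log2 3.02, 2.68 to 3.39). An annotated signal, or its absence, does not show which end the sequenced mRNA had. How many mRNAs without a tail the library kit missed was not tested, and the low read numbers are levels in these libraries.

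**Figure D3:**
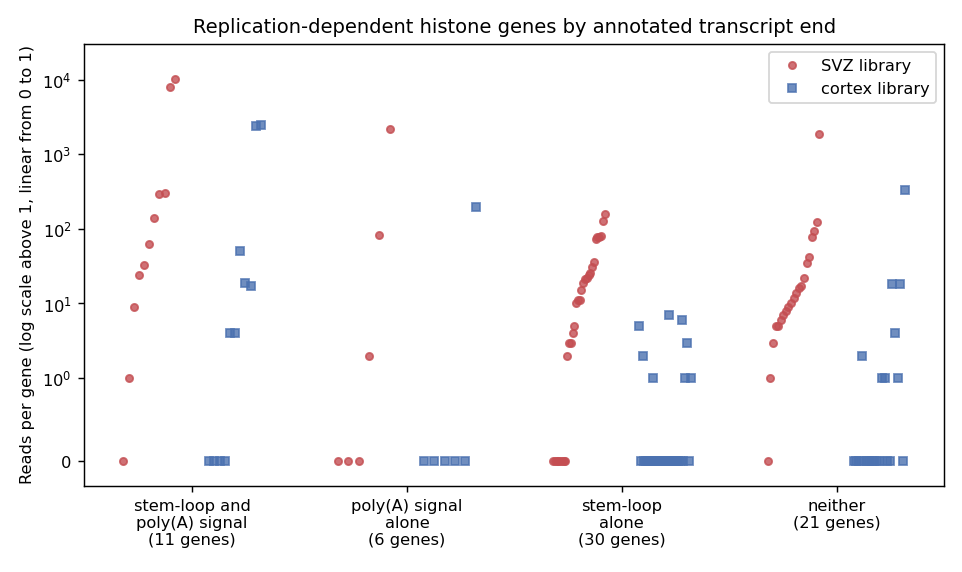
Reads per replication-dependent histone gene (vertical axis, log scale above 1 and linear from 0 to 1) in the SVZ library (circles) and the cortex library (squares), by stem-loop and poly(A) signal of the annotated transcript. The stem-loop genes without a poly(A) signal reach 156 SVZ reads and 7 cortex reads, and the genes with both reach 10074 and 2497. The genes with neither include transcripts annotated at coding length only.

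Near-identical copies also limit these counts, since a read that maps to several places was counted to no gene. Across the replication-dependent genes, a median of 42.2% of the 75-base windows of the transcript, with a range of 0 to 100%, occurred letter for letter in a transcript of another gene. The search did not check place, so that overlapping transcripts of another gene name also count as shared. Hist2h3b, with 100% shared, still had 42 and 4 reads, so that the share does not measure the reads lost. The 31 genes with at least 50% of windows shared held only 640 and 30 reads, and the 37 others held 23642 and 5537. The 11 genes without a read had a median of 89.0% shared, against 38.5% for the 57 genes with a read. A count of 0 for a gene such as these therefore does not show that it was silent.

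The 16 variant genes held far more reads, 933529 and 137497, or 1.81% and 0.624% of all gene-assigned reads. Their sum was 18149 CPM and 6235 CPM, 2.91-fold higher in the SVZ library (log2 1.54, 1.53 to 1.55). For each replication-dependent read there were 38.4 variant reads in the SVZ and 24.7 in the cortex. The kit primes cDNA from poly(A) tails, which replication-dependent mRNAs usually lack. These ratios therefore describe reads, and how far they follow mRNA amounts was not tested. The germline and testis forms H1fnt, H1foo, H2afb1, H2afb2 and H2afb3 had no read, and the other 11 genes were read in both libraries. Of the 10 with a mean of at least 1 CPM, 8 had the whole interval on the SVZ side (48.2% of all genes) and 2 on the cortex side (38.6% of all genes). At least a 4-fold difference to the SVZ side was seen for 3 of the 10, H1f0, H2afv and H2afz (10.2% of all genes), and to the cortex side for 0 (7.01%). Their median log2 ratio was 1.00, with a range of -0.20 to 2.88, beside 0.11 over all genes.

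**Figure D4:**
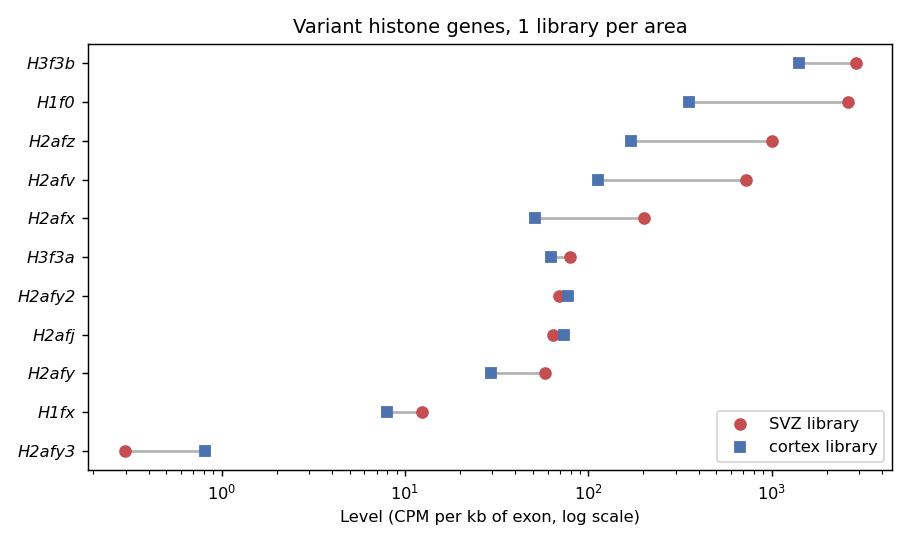
Level of the 11 variant histone genes with reads (CPM per kb of exon, log scale on the horizontal axis) in the SVZ library (circles) and the cortex library (squares), 1 library each. H3f3b is highest in both areas, at 2880 and 1416, and H1f0 shows the widest gap of the genes above 1 CPM per kb, at 2615 and 355.

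Among the H3 variants, both H3.3 genes were read in both areas at unequal levels. H3f3b (chr11:116021912-116027962) had 440912 and 92937 reads, 8572 CPM and 4215 CPM, which ranked it 2 among SVZ and 9 among cortex read counts. It was 2.03-fold higher in the SVZ library (log2 1.02, 1.01 to 1.03). H3f3a (chr1:180800832-180813943) had 14313 and 4842 reads, 278 CPM and 220 CPM, with a log2 ratio of 0.34 (0.29 to 0.39). Per kb of exon, the H3f3b level was 36.3 times that of H3f3a in the SVZ and 22.6 times in the cortex. Their coding sequences, 411 bases each, differ at 95 positions (76.9% identical), and 4.26% of the 75-base windows of H3f3b and 27.9% of those of H3f3a occurred in a transcript of another gene.

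The linker histone gene H1f0 (chr15:79028450-79030504), which encodes H1.0, had 276435 and 16079 reads, 5374 CPM and 729 CPM. Its rank was 3 among SVZ and 152 among cortex read counts, and it had the largest ratio of the variants, 7.37-fold (log2 2.88, 2.86 to 2.90). H1fx (chr6:87980421-87981637), which encodes H1.X, had 776 and 215 reads, 15.1 CPM and 9.75 CPM, with a log2 ratio of 0.63 (0.41 to 0.85). The linker histone genes of both groups thus ranged from Hist1h1b, read in the SVZ library alone, through H1f0 at 7.37-fold and Hist1h1c near equal CPM, to Hist1h1d, with 5 reads in the cortex library alone. In the SVZ, the level of H1f0 was 2615 CPM per kb of exon, and that of Hist1h1c, the replication-dependent linker gene with most reads, was 1.72 CPM per kb. Because the kit primes from poly(A) tails, these values compare reads, and mRNA amounts were not tested.

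Both H2A.Z genes were higher in the SVZ library by similar folds. H2afz (chr3:137864487-137866922) had 91861 and 6713 reads, 1786 CPM and 304 CPM, 5.87-fold (log2 2.55, 2.52 to 2.59). H2afv (chr11:6427229-6444443) had 60977 and 4068 reads, 1186 CPM and 184 CPM, 6.43-fold (log2 2.68, 2.64 to 2.73). The ratio of their levels per kb, H2afz over H2afv, was 1.39 in the SVZ and 1.52 in the cortex, and their coding bases are 79.1% identical. All annotated exons of H2afz add up to 1776 bases and its longest coding transcript has 1069, so that this ratio depends on the length used. Windows shared with other transcripts made up 61.7% of H2afz, so that its counts are less certain. H2afx (chr9:44334694-44336077), whose product is phosphorylated at DNA breaks, had 14272 and 1562 reads, 277 CPM and 70.8 CPM, 3.92-fold (log2 1.97, 1.89 to 2.05), just under 4-fold. It was the only variant gene with the stem-loop letters.

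The other H2A variants differed less or lay on the cortex side. H2afy (chr13:56073619-56136361), a macroH2A gene, had 20242 and 4400 reads, 394 CPM and 200 CPM, 1.97-fold higher in the SVZ library (log2 0.98, 0.93 to 1.03). The second macroH2A gene, H2afy2 (chr10:61738665-61784147), had 7707 and 3703 reads, 150 CPM and 168 CPM, a log2 ratio of -0.16 (-0.22 to -0.11). The macroH2A genes thus lay on opposite sides of equal CPM, and per kb of exon the level of H2afy over H2afy2 was 0.839 in the SVZ and 0.380 in the cortex. The length used was that of all annotated exons together, 6809 bases for H2afy, whose longest coding transcript has 2046 bases. The order of these genes per kb therefore depends on the length used, and in CPM H2afy was the higher gene in both libraries. The stranded columns together held 30.4% more SVZ reads and 29.7% more cortex reads for H2afy2, with the same log2 ratio of -0.16. H2afj (chr6:136808244-136810074), which encodes H2A.J, had 6017 and 2958 reads, 117 CPM and 134 CPM, with a log2 ratio of -0.20 (-0.26 to -0.13). The pseudogene H2afy3 had 17 and 20 reads, a log2 ratio of -1.46 (-2.48 to -0.45). By class, summed variant H1 reads were 7.29-fold, H2A reads 3.68-fold and H3 reads 2.00-fold higher in the SVZ library, so that H3 made up 48.8% of SVZ and 71.1% of cortex variant reads.

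The promoters of the members were read because 33 of the 49 replication-dependent genes with a ratio had the whole interval on the SVZ side. RefSeq promoter sequences (GRCm38.p6) were matched to 76 of the 84 members, 62 replication-dependent and 14 variant, and the 250 bases before the RefSeq start were searched on both strands for CCAAT, the octamer ATTTGCAT, TATAAA and TTTNGCGC. CCAAT stood in 51 of the 62 replication-dependent promoters (82.3%) and 9 of the 14 variant promoters (64.3%), against 34.5% of all 27025 promoters. It stood in all promoters of the classes H1 (6), H2A (18) and H2B (16), in 8 of 10 of H3 and in 3 of 12 of H4. The octamer stood in 21.0% of replication-dependent promoters, all of them H2A (7) or H2B (6), against 1.61% of all promoters. TATAAA stood in 46.8% (13.0% of all) and TTTNGCGC in 17.7% (1.15% of all). These shares count genes and not separate sites. Some H2A and H2B promoters overlap on opposite strands and count the same octamer, as do Hist1h2ae (chr13:23571221-23571370) and Hist1h2bg (chr13:23571250-23571399). Hist1h2bq and Hist1h2br have the same 150 bases before the start, and both count for TTTNGCGC. Of the variant promoters, 7.14% held the octamer, 7.14% TATAAA and 0 TTTNGCGC. The last 150 bases before the start are given for a gene read almost only in the SVZ library, for the most read replication-dependent gene and for the pair of variants with most reads, with matched letters in capitals.
Hist1h2bm: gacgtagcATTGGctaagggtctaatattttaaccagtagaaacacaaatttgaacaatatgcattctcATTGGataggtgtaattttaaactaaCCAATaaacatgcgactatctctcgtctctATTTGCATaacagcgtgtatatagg
Hist3h2ba: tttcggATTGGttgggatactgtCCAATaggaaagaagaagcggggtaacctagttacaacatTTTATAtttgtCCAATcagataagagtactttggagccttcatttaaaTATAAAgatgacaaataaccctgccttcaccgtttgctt
H3f3b: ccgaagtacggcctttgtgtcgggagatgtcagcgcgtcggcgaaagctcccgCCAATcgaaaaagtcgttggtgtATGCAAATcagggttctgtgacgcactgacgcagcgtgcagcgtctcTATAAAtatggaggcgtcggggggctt
H1f0: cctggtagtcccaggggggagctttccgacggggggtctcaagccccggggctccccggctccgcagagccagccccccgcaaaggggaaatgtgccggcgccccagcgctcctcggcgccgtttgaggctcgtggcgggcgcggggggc
These lie at chr13:21721894-21722043 (+) for Hist1h2bm, chr11:58948761-58948910 (+) for Hist3h2ba, chr11:116024505-116024654 (-) for H3f3b and chr15:79028062-79028211 (+) for H1f0. The promoter of H3f3b held CCAAT, the octamer and TATAAA, and was the only variant promoter with the octamer. The H1f0 promoter held none of the searched letters.

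Genes that act with the histones were read as lists. The S phase list holds 21 genes of DNA replication, and all 21 had the whole interval on the SVZ side (48.2% of all genes), 16 of them at 4-fold or more (10.2% of all genes), with a median log2 ratio of 3.18 (range 0.97 to 5.54) and a summed level 6.33-fold higher. Rrm2, a subunit of ribonucleotide reductase, had 39809 and 1417 reads (log2 3.59), Rrm1, its partner, 18178 and 838 reads (3.22), and Pcna, the sliding clamp of DNA polymerase, 13536 and 1986 reads (1.55). The ratio was largest for the origin licensing factor Cdc6 at 5.54 and smallest for the helicase subunit Mcm7 at 0.97. The log2 ratio of the summed replication-dependent histones, 0.90 (0.86 to 0.95), lay below that of every gene of this list. Its interval overlapped that of Mcm7 (0.90 to 1.05), so that counting error does not separate these values. The ratio of the sum without the Hist3 genes, 2.01, lay within the range of the list.

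The 15 genes of histone mRNA processing differed less, with a median log2 ratio of 0.16, 8 whole intervals on the SVZ side (48.2% of all genes) and 3 on the cortex side (38.6%), so that the share on the SVZ side was near that of all genes. Slbp, which encodes the stem-loop binding protein, had 21352 and 2204 reads, 415 CPM and 100 CPM, 4.15-fold higher in the SVZ library (log2 2.05, 1.99 to 2.12), and was the only gene of the list past 4-fold. It fell just under 4-fold with TMM, upper-quartile and DESeq2 scaling. Cpsf3, the endonuclease that cuts pre-mRNA ends, had 10850 and 2921 reads (log2 0.67). Cpsf2, next by reads, had 5752 and 2407 reads, near equal CPM (log2 0.03, -0.03 to 0.10). Eri1, an exonuclease that trims histone mRNA ends, named after its values were seen, had 6167 and 1725 reads (0.62). Lsm11, a subunit of the U7 particle that recognises histone pre-mRNA, lay on the other side, with 387 and 623 reads, 7.52 CPM and 28.3 CPM (log2 -1.91, -2.10 to -1.72), or 3.76-fold higher in the cortex library. It passed 4-fold under the same 3 scalings. Npat, the coactivator of the histone clusters, named after its values were seen, had 2212 and 914 reads, with a ratio of 0.05 on the log2 scale (-0.06 to 0.17).

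Of the 24 histone chaperone genes, 15 had the whole interval on the SVZ side (48.2% of all genes) and 9 on the cortex side (38.6%), with a median log2 ratio of 0.35. The most read were Set (48398 and 16584 reads, log2 0.32), Atrx, which with Daxx deposits H3.3 (35333 and 17326 reads, log2 -0.19), and Npm1 (36669 and 8973 reads, log2 0.81). Asf1b, an H3-H4 chaperone, had 5405 and 37 reads, 105 CPM and 1.68 CPM, 62.6-fold higher in the SVZ library (log2 5.97, 5.50 to 6.48). Nap1l5, a member of the nucleosome assembly protein family, had 1172 and 2249 reads and was 4.48-fold higher in the cortex library (log2 -2.16, -2.27 to -2.06). Further genes of the list, named here after their values were seen, were those of the complexes that deposit H3 histones. For CAF-1, which acts at replication, the log2 ratios were 1.84 for Chaf1a, 1.43 for Chaf1b and 0.32 for Rbbp4. For the HIRA complex, which deposits H3.3, they were -0.43 for Hira, -0.20 for Ubn1, 0.45 for Ubn2 and -0.21 for Cabin1, and for Daxx, the partner of Atrx, -0.21. The members of the HIRA complex thus lay on both sides of equal CPM.

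**Figure D5:**
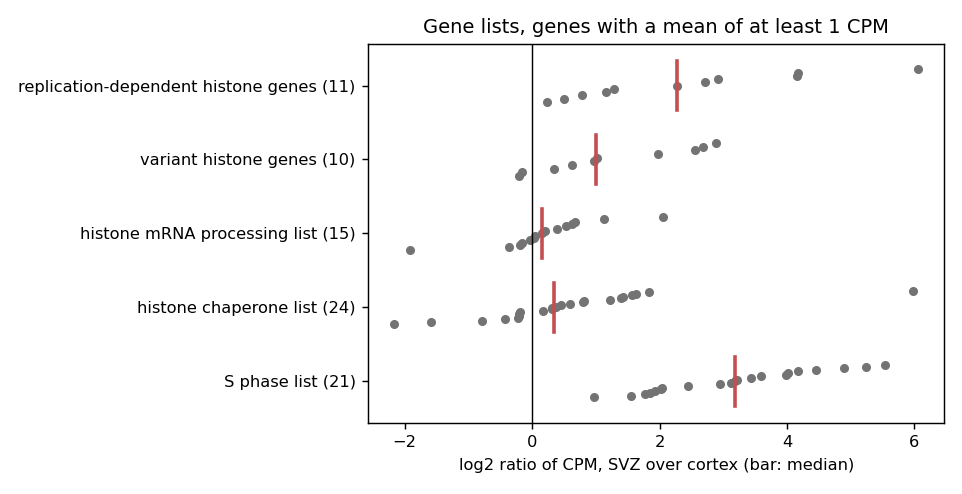
Log2 ratio of CPM (SVZ over cortex, horizontal axis) of each gene with a mean of at least 1 CPM in 3 gene lists and the 2 histone groups; points are genes and bars medians, with bounds drawn at their value. Medians are 3.18 for S phase, 0.35 for chaperones, 0.16 for histone mRNA processing, 1.00 for variants and 2.27 for replication-dependent genes.

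Histone genes outside the symbol rule were Cenpa, Hils1 and H2bfm. Cenpa, the centromeric H3 variant that is made as cells approach division, had 12296 and 131 reads, 239 CPM and 5.94 CPM. It was 40.2-fold higher in the SVZ library (log2 5.33, 5.08 to 5.59), a larger ratio than that of any of the 11 variant genes read. The testis gene Hils1 and the H2B gene H2bfm were listed at 0 in both libraries.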

How the data were processed

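LCM RNA-seq was measured in 1 library each of SVZ and cortex. Per the study's methods, the authors made libraries with a low-input cDNA kit, trimmed adapters with cutadapt 4.1, mapped read 1 alone to mm10 and counted reads per gene with STAR 2.7.9a, which drops reads that map to several places or genes. The counts, as deposited, are raw whole numbers of reads for each gene. Duplicate removal is not given in the sources used here. The authors' merged table, which holds their CPM, fold change and log10 ratio, was not used.

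Unstranded counts were scaled to CPM on gene-assigned reads, 51435667 and 22050693. Unmapped, multimapping, unassigned and ambiguous reads stayed out, among them 8.20% and 6.89% multimapping reads. No pseudocount entered the log2 ratios. For a count of 0, 3 reads were used, which gives a bound. Calls at 4-fold required a mean level of 1 CPM or more. No test was possible with 1 library per area. Exon lengths, transcripts and positions came from GENCODE M21, matched by symbol for all 84 members, and promoters from RefSeq. Levels per kb used the length of all annotated exons of a gene together.

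The members and lists were chosen with earlier results of these data known. Genes named were every variant gene, the 10 most read replication-dependent genes, the most read of each class, those higher in the cortex library (4-fold, or with 10 reads in a library), and of each list the 3 most read and the largest ratio each way. Procedures were tested on simulated data. Alternatives covered scaling (edgeR 4.0.16, DESeq2 1.42.0), count column, depth, pseudocount, minimum and fold, and, chosen after seeing the data, sums without the Hist3 genes, the 4 most read genes, or H3f3b and H1f0. Software was Python 3.11.15 with pandas 2.3.3, scipy 1.17.1, matplotlib 3.10.9 and numpy 2.4.6, and R 4.3.3.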

Additional observations from a re-analysis of the deposited data

How the results depend on the processing

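No paired analysis was possible because the design holds 1 library for the SVZ and 1 for the cortex. No called value changed sign under any alternative run. Hist3h2bb-ps, whose interval spans equal CPM, went from -0.26 to 0.06 with the stranded columns. Of 185 alternative values of group and list results, 141 stayed within a set range and 44 moved. The range was the counting interval for sums and 1.5 times the count for counts. For medians it ran from the median lower limit to the median upper limit of the members, extended where needed to hold the median. That range is not an interval of the median and can be wide. TMM, upper-quartile and DESeq2 scaling shifted the median log2 ratio of all genes, by -0.102 for the upper quartile and -0.096 for the others. The summed replication-dependent genes (0.90) then stood at 0.81, 0.80 and 0.81, the summed variants (1.54) at 1.45, 1.44 and 1.45, the variant median (1.00) at 0.91, 0.90 and 0.91 and the chaperone median (0.35) at 0.25 in all 3. Under each of these scalings 0 genes of histone mRNA processing passed 4-fold to the SVZ side and 1 to the cortex side. Totals without the 10 most counted genes gave 0.97 for the variant median and 1.51 for the variant sum. The stranded columns gave 1.53 for the variant sum and 1.77 for the replication-dependent median (2.27).

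The choice of genes moved more. The replication-dependent median was 1.78 with a pseudocount of 1 CPM, 1.59 with no minimum and 1.03 with a minimum of 10 CPM. The number of replication-dependent genes at 4-fold (6) was 1 with the pseudocount, 18 with no minimum, 1 with 10 CPM and 3 at 10-fold. At 2-fold there were 5 variants in place of 3, 2 processing genes to the SVZ side and 1 to the cortex side, and 7 and 2 chaperones. At 10-fold there were 0 variants, 0 processing genes, 0 chaperones to the cortex side and 9 S phase genes in place of 16. With the whole interval past 4-fold, 0 processing genes remained to the SVZ side. Without Hist3h2ba the replication-dependent sum was 0.99, without the 3 Hist3 genes 2.01 and without the 4 most read genes 2.57. Without H3f3b the variant sum was 2.24, and without H3f3b and H1f0 1.70. The sums without the Hist3 genes, the 4 most read genes, and H3f3b with H1f0 were chosen after seeing the data. Depth limits the low genes: with 1 read worth 0.0454 CPM in the cortex library, most replication-dependent genes had 0 to 7 reads there, and their folds are bounds or have wide intervals.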
